A study of Homo sapiens with 21 samples.

Results

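Later-intron distal sites were accessible regions that lay in an intron other than the opening one of a gene and more than 3000 bases from the nearest annotated transcription start site (TSS). They were taken from the HOMER annotation of a consensus set of ATAC-Seq sites as those annotated to an intron, with intron 1 excluded. The rule gave 108518 of 367900 sites, 29.5% of the set, in 12147 host genes, and used no measured value of accessibility. Their median length was 732 bases (216 to 2556 from the 5th to the 95th percentile), against 760 bases for all sites. The median distance to the nearest TSS was 51.7 kb, and in 52.9% of members the nearest gene was the host gene itself. A host gene held a median of 3 members. The 352 host genes with at least 50 members held 30.2% of them. The label was checked against a more detailed annotation deposited for the same sites. It gave the same host gene for 98.5% of members but the same intron number for 67.3%, and it placed 3215 members in intron 1 of another transcript. Intron numbers below are therefore those of one annotated transcript per site.

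The cells were SK-N-BE(2), an established neuroblastoma line with amplified MYCN. All groups received lentiviral shRNA and were profiled by ATAC-Seq 72 h later, as 3 libraries per group described as biological triplicates. Control cells carried, by the study's methods, a non-silencing shRNA. The other 6 groups carried shARID1A.2 or shARID1A.4 against ARID1A, shARID1B.2 or shARID1B.3 against ARID1B, or 1 of 2 combinations that target both, named shARID1A/B.2.3 and, for the other, shARID1A/B.4.2. The numbers in these names match hairpin numbers, but the labels do not spell out the pairs. A single line was used, and ATAC-Seq does not measure how far either protein was depleted. Reads in sites ranged from 16140029 to 44472230 per library. Of 12 sympathoadrenal markers, 7 had a promoter site in Control, with 43.9 CPM (read counts scaled to the library total) at HAND2, 34.2 at GATA3 and 24 at PHOX2A, whereas ISL1 had none under this annotation. Within 1 kb of a TSS, 9 of these 12 genes had a site. Promoter sites were absent for all 6 blood and all 4 liver markers, whose sites within 1 kb held at most 1 and 3.17 CPM. Of 6 mesenchymal markers only TWIST1 had one (41.2 CPM), and of 5 epithelial markers KRT8 and KRT18 did, with up to 0.679 CPM, although 3 of the 5 epithelial genes had a site within 1 kb, with 6.62 CPM at EPCAM.

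ATAC-Seq counts insertions of the Tn5 transposase, which enters DNA that is not wrapped in nucleosomes. The BAF complex, of which ARID1A and ARID1B are alternative structural subunits, uses ATP to slide and evict nucleosomes, and it is best known for keeping enhancers open. Many enhancers lie inside introns, often in long genes of neuronal adhesion and signalling, and may act on the host gene or on another gene. A site that lost reads is called closed below and a site that gained reads opened. In cell populations, fewer cells with an open site and a less open site in each cell cannot be told apart.

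The windows of 4 of the members with the largest falls after combined silencing and of 2 with the largest rises are shown first, since they carry the extremes of the data. Each line gives 300 bases around the centre of the site, on the plus strand of GRCh38. The windows are, in order, chr6:19070451-19070750, chr12:128442155-128442454, chr1:59635105-59635404, chr10:100153207-100153506, chr11:93407952-93408251 and chr12:21813485-21813784. Capitals mark matches on either strand to CATCTG, an E-box bound by HAND and other class II bHLH factors, to AGATAA, the site of zinc-finger factors such as GATA3, to TAATTA, a homeodomain site, to TTGGCA, an element of nuclear factor I proteins (NFI), or to CCACTAG, a fragment of the core bound by CTCF.
LOC101928519 intron 10: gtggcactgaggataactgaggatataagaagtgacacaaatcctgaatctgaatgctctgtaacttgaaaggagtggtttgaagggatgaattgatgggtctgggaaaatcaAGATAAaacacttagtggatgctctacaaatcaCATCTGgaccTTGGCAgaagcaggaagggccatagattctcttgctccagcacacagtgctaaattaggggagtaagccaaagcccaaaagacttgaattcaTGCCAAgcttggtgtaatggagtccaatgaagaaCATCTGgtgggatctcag
TMEM132C intron 2: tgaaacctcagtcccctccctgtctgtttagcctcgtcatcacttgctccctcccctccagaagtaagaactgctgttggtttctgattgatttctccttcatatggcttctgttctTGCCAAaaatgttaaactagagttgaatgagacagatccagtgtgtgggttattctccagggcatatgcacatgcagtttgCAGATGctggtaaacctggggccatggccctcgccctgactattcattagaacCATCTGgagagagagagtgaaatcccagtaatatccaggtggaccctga
FGGY intron 11: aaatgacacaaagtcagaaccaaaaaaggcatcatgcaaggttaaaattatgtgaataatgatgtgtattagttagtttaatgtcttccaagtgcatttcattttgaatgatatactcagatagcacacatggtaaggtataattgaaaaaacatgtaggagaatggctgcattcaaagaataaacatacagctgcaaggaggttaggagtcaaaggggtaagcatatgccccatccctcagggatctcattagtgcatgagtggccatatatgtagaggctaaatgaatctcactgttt
ERLIN1 intron 11: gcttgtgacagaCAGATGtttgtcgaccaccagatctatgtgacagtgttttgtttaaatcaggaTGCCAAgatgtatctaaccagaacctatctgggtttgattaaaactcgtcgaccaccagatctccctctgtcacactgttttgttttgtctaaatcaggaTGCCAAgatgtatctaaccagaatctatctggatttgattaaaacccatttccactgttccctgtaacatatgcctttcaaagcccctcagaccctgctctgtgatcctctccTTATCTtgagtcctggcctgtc
CCDC67 intron 11: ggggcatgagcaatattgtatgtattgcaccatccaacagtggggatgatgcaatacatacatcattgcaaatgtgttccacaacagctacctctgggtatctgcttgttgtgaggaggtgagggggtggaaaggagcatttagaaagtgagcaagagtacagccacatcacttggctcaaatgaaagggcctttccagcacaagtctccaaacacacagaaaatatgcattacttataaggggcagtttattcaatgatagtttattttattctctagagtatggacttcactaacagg
ABCC9 intron 34: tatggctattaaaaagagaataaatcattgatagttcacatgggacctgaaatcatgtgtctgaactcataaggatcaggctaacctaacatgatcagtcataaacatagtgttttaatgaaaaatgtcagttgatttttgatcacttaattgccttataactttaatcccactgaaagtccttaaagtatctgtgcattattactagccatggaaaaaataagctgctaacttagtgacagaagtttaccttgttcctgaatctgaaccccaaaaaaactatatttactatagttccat

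Of the 12 windows at the largest falls, 10 held CATCTG, 6 held TTGGCA and 3 held AGATAA. Of the 5 windows read at the largest rises, 2 held CATCTG and 0 held any of the other 4 motifs. Over all tested sites, 23% of windows held CATCTG, 17.1% held TTGGCA and 17% held AGATAA. A match describes letters in these windows and does not show binding.

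All values at single sites are CPM relative to scaled library totals, and where the combinations are given together the values of shARID1A/B.2.3 come first. The site with the largest fall lay in intron 10 of LOC101928519 (chr6:19070343-19070857). Control libraries held 5.34, 4.48 and 4.49 CPM, shARID1A/B.2.3 libraries 0.427, 0.674 and 0.352, and shARID1A/B.4.2 libraries 0.538, 0.506 and 0.557. The log2 change was -3.17 (edgeR FDR 1.14e-28, SE 0.17). The 6 combination libraries all lay below every Control library, which the rule for choosing the largest falls required. Levels were already low with single hairpins, at 1.27, 1.10 and 0.988 with shARID1A.2, 0.687, 0.601 and 0.564 with shARID1A.4, 0.995, 1.13 and 0.690 with shARID1B.2 and 0.698, 0.559 and 0.672 with shARID1B.3. The step from single to combined silencing was -0.60 (edgeR FDR 0.0163, SE 0.18), which missed the threshold of 0.01. In intron 2 of TMEM132C, which codes for a transmembrane protein (chr12:128442149-128442459), Control libraries ranged from 4.69 to 5.38 CPM. The combinations held 0.525, 0.627 and 0.747 and 0.582, 0.690 and 0.696 CPM, a log2 change of -2.98 (edgeR FDR 1.49e-27, SE 0.17). Here the single hairpins were intermediate, from 2.85 to 3.39 CPM with shARID1B.2 down to 0.924 to 1.06 with shARID1A.4, and the step to combined silencing was -1.27 (edgeR FDR 1.14e-09, SE 0.16).

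FGGY, a carbohydrate kinase gene, had its site in intron 11 (chr1:59634881-59635628). Control libraries held 3.70, 3.74 and 4.49 CPM, shARID1A/B.2.3 libraries 0.492, 0.372 and 0.571, and shARID1A/B.4.2 libraries 0.538, 0.690 and 0.417. Its log2 change was -2.98 (edgeR FDR 1.92e-26, SE 0.18). With shARID1A.2 the site held 1.63, 1.67 and 1.71 CPM and with shARID1B.3 0.753, 0.583 and 0.672, and the log2 change was -1.54 with ARID1A and -2.35 with ARID1B silencing, a difference that was not tested at this site. ERLIN1, which codes for a lipid raft protein of the endoplasmic reticulum, closed in intron 11 (chr10:100152926-100153787). There, Control libraries held 6.11, 5.14 and 6.13 CPM, shARID1A/B.2.3 libraries 0.657, 0.511 and 0.835, and shARID1A/B.4.2 libraries 0.851, 0.736 and 1.11. The log2 change was -2.92 (edgeR FDR 2.02e-28, SE 0.16), and the hairpins of each gene did not overlap, at 2.17 ± 0.351 CPM for shARID1A.2 against 0.794 ± 0.225 for shARID1A.4, and 2.53 ± 0.323 for shARID1B.2 against 0.596 ± 0.214 for shARID1B.3 (SD, n = 3 each). RPS6KA2, a ribosomal S6 kinase gene, closed in intron 2 from 3.22, 3.41 and 3.73 CPM in Control to 0.558, 0.465 and 0.571 and 0.403, 0.368 and 0.510 in the combinations, which was -2.86 (edgeR FDR 1.08e-23, SE 0.19) on the log2 scale. At none of these 3 sites did a combination library reach a Control library, which was a condition of their choice.

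Across the members, closing was far more frequent than opening. Of 105426 members that passed the filter on low counts, 12497 closed after combined silencing (11.9%), against 10.3% of all tested sites, and 1557 opened (1.48%), against 3.43%. The share of members closed thus lay near the background, and the share opened lay below it. The median log2 change was -0.01 over members and 0.03 over all tested sites. Among closed members 5269 fell by at least 1 on the log2 scale, and among opened members 246 rose by as much, or 5.0% and 0.233% of tested members against 4.46% and 0.252% of all tested sites. The call was an edgeR false discovery rate (FDR) under 0.01 over all tested sites. Scaling the libraries on promoter sites only moved the median of all tested sites to -0.20, and the counts then became 19048 closed and 263 opened. Without replicate 2 of shARID1A/B.2.3, 2436 members opened.

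The hairpins differed in the number of members called. shARID1A/B.2.3 closed 12938 members (12.3%, against 10.4% of all tested sites) and opened 1780 (1.69%, against 2.85%). shARID1A/B.4.2 closed 8603 (8.16%, against 7.37%) and opened 1906 (1.81%, against 3.97%), or 1260 without its replicate 3. ARID1A silencing, averaged over its hairpins, closed 6312 members (5.99%, against 5.37%) and opened 774 (0.734%, against 1.67%). ARID1B silencing closed 4072 (3.86%, against 3.53%) and opened 1147 (1.09%, against 1.39%). Leaving out Control replicate 2 lowered the opened members to 353 for ARID1A and 646 for ARID1B. Under promoter scaling the share of called members that closed rose from 81.9% to 97.8% for shARID1A/B.4.2 and from 78% to 93.3% for ARID1B silencing.

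Combined silencing was also set directly against the 4 groups with single hairpins, a comparison without Control libraries. It found 8740 members lower with both genes silenced (8.29%, against 6.85% of all tested sites) and 451 higher (0.428%, against 0.969%). The members closed by combined silencing had a median log2 change of -0.92 in that contrast, -0.55 with ARID1A and -0.36 with ARID1B silencing. Opened members had medians of 0.64, 0.48 and 0.45. These members were selected by their call in the combined contrast, which by itself favours larger changes there. The 3 contrasts also share the Control libraries, so their values stand side by side only as descriptions.

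The reads of whole libraries gave a sample-level view of the members. Later-intron distal sites took 20.3, 20.3 and 20.4% of the reads in Control libraries, 18, 17.8 and 18.2% with shARID1A/B.2.3 and 17.8, 17.9 and 17.8% with shARID1A/B.4.2. Shares with single hairpins lay between, from 18.2% in a shARID1A.2 library to 20.1% in a shARID1B.2 library. No silenced library reached the Control range. Promoter sites moved the other way, from 20.0% to 20.6% in Control to 23.4% to 25.1% in the combinations, and since shares sum to a whole, the part of this rise in the members' smaller share was not tested.

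**Figure D1:**
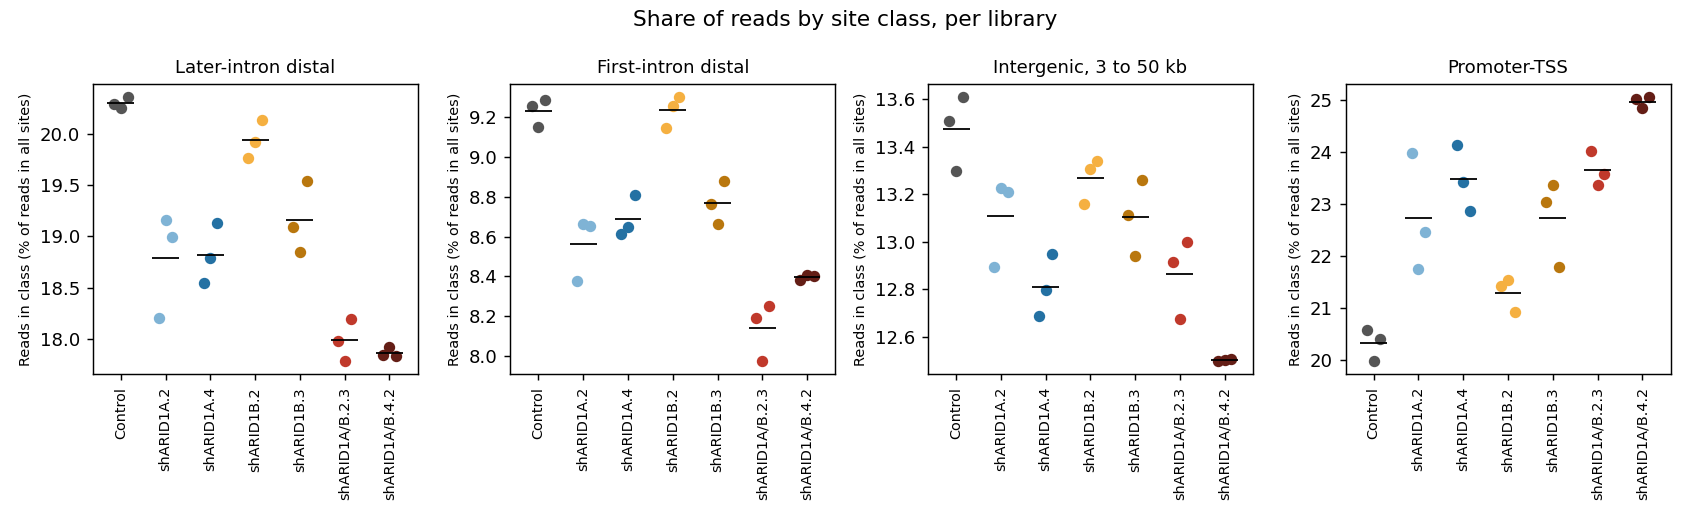
Share of the reads in all sites that fell in 4 classes of site, in percent, for each library (1 point, coloured by group), with the group mean as a line. The axes do not start at 0. In the later-intron panel all 6 combination libraries lie below all single-hairpin libraries, at the closest by a narrow margin, and Control lies highest.

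As a log2 ratio of reads in members to reads in all other sites, combined silencing differed from Control by -0.22 (mean -2.20 ± 0.01, n = 6, against -1.97 ± 0.00474, n = 3, SD; exact permutation p = 0.0238, adjusted p = 0.0544 over 16 tests). ARID1A silencing differed by -0.14 and ARID1B silencing by -0.07, with the same exact permutation p of 0.0238 and adjusted p of 0.0544. That p is the smallest that 6 libraries against 3 allow in a two-sided test, and after adjustment all 3 contrasts missed 0.05. In each of the 3 contrasts the groups did not overlap. Combined against single silencing, with 6 against 12 libraries, differed by -0.12 (exact permutation p = 0.000108, the smallest possible, adjusted p = 0.00172). These groups did not overlap, but by a narrow margin. The highest combination library lay at -2.169 and the lowest single-hairpin library at -2.168. In all these permutation tests libraries were the units, although triplicates of a hairpin group are not independent samples of hairpins. The p-values therefore do not measure the spread between hairpins. ARID1A differed from ARID1B silencing by -0.07 (6 against 6 libraries, exact permutation p = 0.0216, adjusted p = 0.0866 over 4 ratios), which missed 0.05 after adjustment. That comparison was added after the values had been seen.

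Against the sites most like them, the differences were smaller. The log2 ratio of later-intron to first-intron distal reads was 1.09 to 1.16 in the combinations and 1.13 to 1.15 in Control, ranges that overlap, with a difference of -0.02 (exact permutation p = 0.381, adjusted p = 0.435). The difference from first-intron sites did not pass in any of the 4 contrasts, with adjusted p of 0.143 to 0.628 in exact permutation tests. Against intergenic sites 3 to 50 kb from a TSS, the log2 ratio differed by -0.09 between combined silencing and Control, without overlap. That difference missed 0.05 after adjustment (exact permutation p = 0.0238, adjusted p = 0.0544). The same ratio fell by 0.05 from single to combined silencing (adjusted p = 0.00603 in the exact permutation test). As a mean over sites of log2(CPM + 1), this fall became -0.02 with an adjusted permutation p of 0.0952, which missed 0.05. By site, 12.8% of first-intron distal and 10.2% of these intergenic sites closed after combined silencing, and 1.62% and 2.56% opened.

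Sites with more reads were called more often. In the lowest quintile of members by mean CPM (up to 0.508 CPM) 2.53% closed, in the middle quintile 7.14%, and in the highest quintile (over 2.31 CPM) 32.5%. Opened members made up 0.289%, 0.896% and 4.25% of these quintiles, against 0.343%, 0.990% and 11.9% of all tested sites at the same levels and 7.70% of the intergenic sites at the highest. At the level of the highest quintile, first-intron sites closed as 32.9%, intergenic sites 3 to 50 kb away as 23.9% and all tested sites as 24.2%. At the lowest level the 4 shares lay between 2.30% and 2.53%. Weak sites carry more counting error, so a site with few reads that was not called may still have changed.

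**Figure D2:**
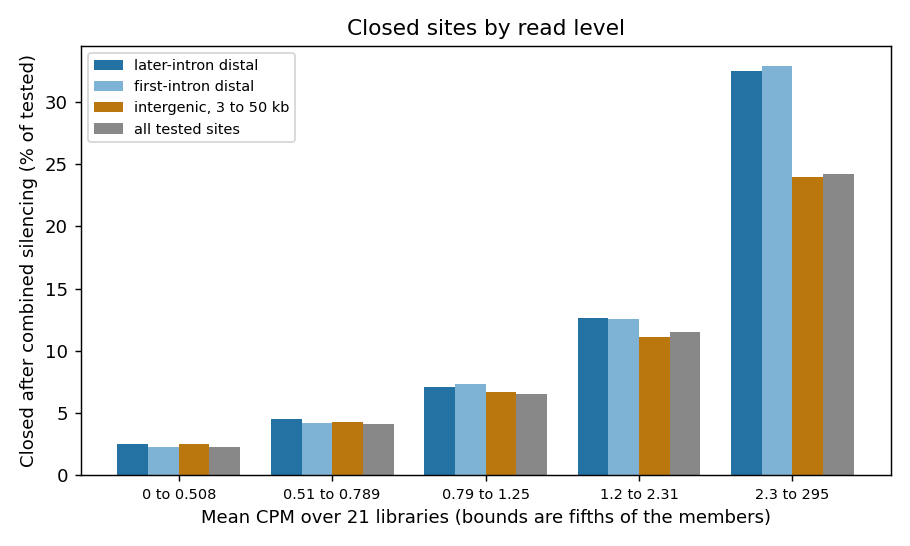
Percent of tested sites that closed after combined silencing (vertical axis) by mean CPM over 21 libraries (horizontal axis, bounds are the quintiles of the members), for members and 3 comparison sets. Closing rises with level in every set, and in the highest class members reach 32.5% and intergenic sites 23.9%.

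Closing varied little with intron position. Intron 2 held 28336 members (26.1%), intron 3 16894, introns 4 to 5 18585, introns 6 to 10 22250, and introns from 11 on 22453, the highest number being 178. After combined silencing 12.2% of tested members in intron 2 closed, 12.5% in intron 3, 12% in introns 4 to 5, 11.6% in introns 6 to 10 and 11.2% beyond, all near the share over all members. Opened shares ran from 1.26% in intron 3 to 1.70% in introns 6 to 10. The last intron of a gene, with 14360 members, closed in 11.9% of those tested, against 11.8% elsewhere. ARID1A silencing closed 6.04% in intron 2 and 5.69% from intron 11 on, and ARID1B silencing 3.86% and 3.90%. Where both annotations gave the same number, the closed shares were 12.2% in intron 2 and 11.1% from intron 11 on.

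Whole libraries were compared in the same way, and no contrast passed. The log2 ratio of reads in introns 11 and later to reads in intron 2 was -0.458 to -0.423 in the combinations and -0.468 to -0.446 in Control, a difference of 0.01 (exact permutation p = 0.190, adjusted p = 0.305). The 3 other contrasts gave differences of -0.01 to 0.01 with adjusted permutation p of 0.312 to 0.628 (exact tests). Later introns lay farther from a TSS, at a median of 67.1 kb from intron 11 on against 39.7 kb in intron 2, and had a GC content of 46.7% against 45.9%, while the median CPM was 0.966 and 0.992.

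**Figure D3:**
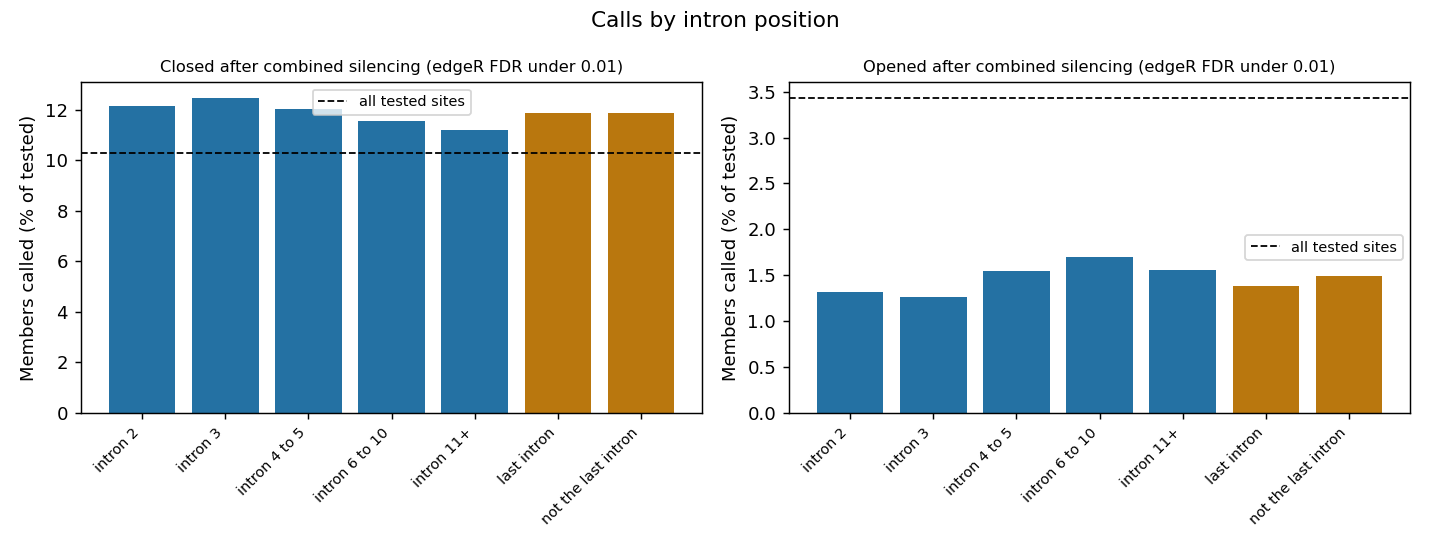
Percent of tested members that closed (left) or opened (right) after combined silencing, by intron position (blue) and for the last intron against the others (brown). The dashed line is the share of all tested sites, 10.3% and 3.43%, and the bars are nearly level.

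Host genes differed widely. Of 12038 host genes with tested members, 4442 had at least 1 closed and 1238 at least 1 opened member, and 604 had both. The 674 host genes with the most closed members held as many of them as all other genes together. Among 2643 host genes with at least 10 tested members, the median share closed was 9.09% and the 90th percentile 31.2%, 679 had no closed member and 45 had more than 50% closed. The 85 genes with over 100 tested members had 7.68% closed, and genes with 10 to 50 tested had 13.1%. Neighbouring members of an intron were often called alike. The next member closed in 26.8% of cases where a member had closed and in 9.61% where it had not, over 64794 neighbouring pairs with a median gap of 2.59 kb. With gaps over 20 kb the shares were 31.5% and 19.3%.

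The 10 host genes with the most closed members held 57 to 212 tested members each, and a ranking by count favours genes with many. SLIT3, which codes for a secreted guidance ligand of ROBO receptors, led with 41 of 123 tested members closed and 1 opened, spread over 13 of its 22 introns with members and over 551 kb. In its intron 4, 21 of 64 closed. The receptor gene ROBO2 had 35 of 212 closed and 5 opened (3 without Control replicate 1), with 18 of the closed ones in intron 2 and 15 in intron 3. Its median over all members was 0.01, so closed members stood among many that were not called. The teneurin genes TENM4 and TENM2, which code for adhesion proteins of synapses, had 34 of 150 and 29 of 170 closed. TENM4 members were read deeply, with a median of 2.67 CPM against 0.984 over all members.

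Nuclear regulators formed another group among these genes. HDAC9, a class IIa histone deacetylase, had 30 of 88 members closed and 0 opened, in 12 of 16 introns, with a median log2 change of -0.49 over all its members. CAMTA1, a calmodulin-binding transcription activator, had 28 of 57 closed and a median of -0.61, with 9 of 20 closed in intron 6. AUTS2, a regulator of neuronal development, had 31 of 90 closed, or 20 without Control replicate 3. The enzyme genes were PDE4D, a cAMP phosphodiesterase (30 of 153 closed, 22 of them in intron 3), MACROD2, an ADP-ribose hydrolase (31 of 191 closed and 5 opened, but 1 opened when Control replicate 3 was left out and 8 when shARID1A/B.2.3 replicate 3 was), and GMDS, which makes the precursor of fucose (28 of 76 closed).

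The highest shares closed were found in genes with fewer members. TRABD2B, which codes for a membrane protease that inactivates WNT proteins, had 18 of 19 tested members closed, across 199 kb. Its log2 changes ran from -2.83 to -1.03, all below 0, and ARID1A silencing alone closed 14 and ARID1B silencing 8 of them. RFTN1, which codes for a lipid raft protein, had 10 of 12 closed, or 5 without Control replicate 1 or without shARID1A/B.4.2 replicate 1, 6 without Control replicate 3, and 5 by DESeq2. ARHGEF3, a GTPase exchange factor gene, had 13 of 16 closed, 8 in intron 2 and 5 in intron 3. ANTXR1, a collagen-binding receptor that also binds anthrax toxin, had 14 of 18 closed, and all 5 members in its intron 17 were among them. GRIK3, a kainate receptor subunit gene, had 10 of 13 closed, with at least 1 in each of its 8 introns with members. These genes were chosen for their share closed, so the shares are descriptions. The strongest fall in TRABD2B was at a site in intron 2 (chr1:47805857-47806577), where Control libraries held 5.68, 5.05 and 5.61 CPM and the combinations 0.788, 0.883 and 0.659 and 0.582, 0.736 and 0.881. Its log2 change was -2.83 (edgeR FDR 2.33e-28, SE 0.16), and single hairpins lay between, at group means of 1.14 to 2.36 CPM.

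**Figure D4:**
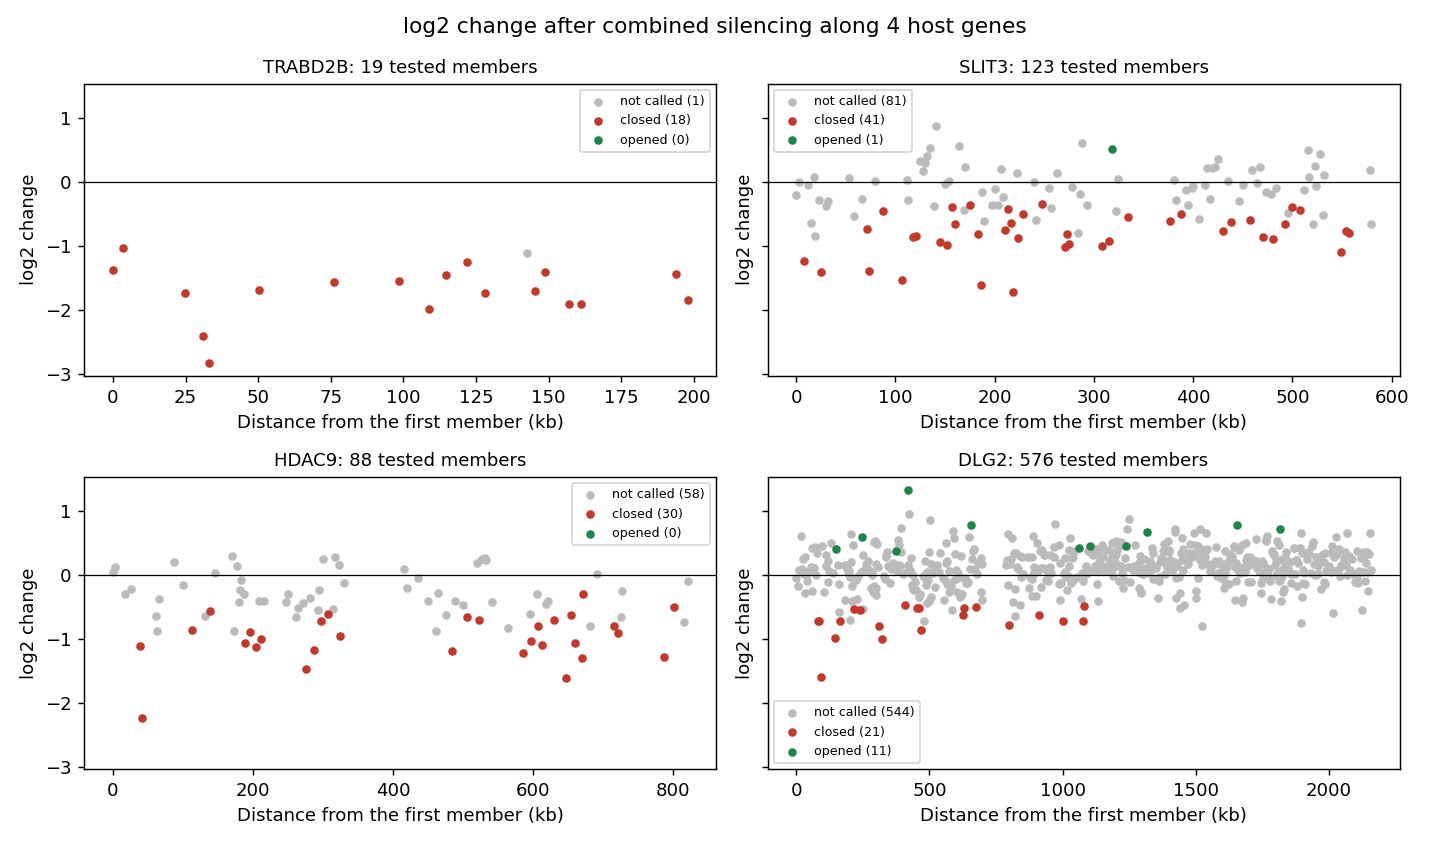
log2 change after combined silencing against Control (vertical axis) of every tested member of 4 host genes, by distance in kb from the member with the lowest coordinate (horizontal axis), coloured by call at an edgeR FDR under 0.01. TRABD2B lies below 0 throughout, called and uncalled members of SLIT3 and HDAC9 are interspersed, and the 21 closed members of DLG2 lie in one part of the gene.

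The 3 host genes with the most opened members were DLG2, C9orf3 and BAGE2. DLG2, which codes for a scaffold protein of the postsynaptic density, had the most members of all, 582, of which 11 opened and 21 closed among 576 tested. The closed ones lay within 1002 kb of a span of 2159.8 kb, and the opened ones within 1670.4 kb. With offsets for GC content 24 of its members opened, and without Control replicate 3 only 4, or 7 without Control replicate 1. C9orf3, an aminopeptidase gene, had 11 opened and 3 closed of 42 tested (6 opened without Control replicate 2). In BAGE2, a cancer-testis antigen gene, 11 of 20 opened and 0 closed, with log2 changes from 0.28 to 1.11, but 5 opened without Control replicate 3 and 7 without Control replicate 1. BAGE2 belongs to a family of near-identical copies, between which reads may be split, so its values are uncertain. Under promoter scaling the opened members of these 3 genes were 2, 2 and 3.

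Sites outside the members were described by host gene. In host genes with at least 10 tested members and none closed, 5.75% of 4035 first-intron distal sites closed. That share was 14.1% in genes with 10% to 25% of later-intron members closed, 21.4% with 25% to 50%, and 30.9% of 194 sites in the genes with more than 50% closed. Over all first-intron distal sites it was 12.8%. The median level of members differed too, at 0.880 CPM in genes with none closed, 1.22 with 25% to 50% closed and 1.13 above. The part of read level in this trend was not tested. The promoters of these classes had like medians. The promoter site of the host gene had a median log2 change of 0.23 in genes without a closed member and 0.23 in genes with over 50% closed, where 0 of 19 promoters closed and 7 opened (36.8%). Promoters opened in 33.9% of the 345 genes without a closed member and, in the classes between, in 30.4% to 38.3%. These positive values depend on the scaling to all sites, since scaling on promoter sites moves promoters to 0 on balance by construction. Among named genes, the promoter site of SLIT3 changed by 0.19 (edgeR FDR 0.0774) and that of TRABD2B by 0.13 (FDR 0.526), neither past the threshold, while on the same scaling those of AUTS2 (0.57), MACROD2 (0.62) and CAMTA1 (0.40) rose, with FDR of 1.7e-08, 1.88e-09 and 3.18e-05. Those of TENM4 (0.23, edgeR FDR 0.00491) and PDE4D (0.43, FDR 0.00361) also rose, whereas those of ROBO2, TENM2, GMDS, RFTN1 and DLG2 did not pass the threshold.

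Host genes were then grouped by 11 lists of function, each set beside the 11.9% of all members and 10.3% of all tested sites that closed. Integrins, the receptors that hold cells to the matrix, had the highest share of the lists. Of members in integrin genes, 42 of 201 (20.9%) closed and 2 opened, with a median log2 change of -0.09 over all of them. ITGA9 held 16 of 23 and ITGA1 7 of 18, and without ITGA9 the share was 14.6%. The study singled out integrins from these libraries, so their share is not independent evidence. The integrin member with the smallest p lay in intron 12 of ITGA8 (chr10:15635287-15637183), with 10.7, 10.7 and 9.70 CPM in Control and 3.05, 2.46 and 2.95 and 3, 2.30 and 2.55 in the combinations, a log2 change of -1.94 (edgeR FDR 2.5e-27, SE 0.11). In collagen, laminin and other matrix genes 163 of 1151 (14.2%) closed and 10 opened, with the highest counts per gene in RELN (13 of 33) and COL22A1 (13 of 60). A site in intron 40 of COL4A2 (chr13:110498985-110500652), a basement membrane collagen gene, went from 28, 26.7 and 28 CPM in Control to 5.75, 4.04 and 6.29 with shARID1A/B.2.3 and 9.63, 9.20 and 8.86 with shARID1A/B.4.2, at a log2 change of -1.99 (edgeR FDR 2.07e-33, SE 0.09).

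Genes of axon guidance, whose ligands and receptors steer growing neurites, had 300 of 1612 (18.6%) members closed and 17 opened. The share without SLIT3 was 17.4%. ROBO1 had 25 of 141 closed and the semaphorin receptor gene PLXNA4 24 of 80. The member with the smallest p lay in intron 11 of NRP2, a co-receptor for semaphorins (chr2:205745640-205748041), where Control libraries held 28.1, 25 and 26.4 CPM. Combination libraries held 5.25, 4.30 and 5.45 with shARID1A/B.2.3 and 8.02, 7.22 and 7.56 with shARID1A/B.4.2, which gave -2.11 (edgeR FDR 2.49e-36, SE 0.09) on the log2 scale. Single hairpins gave 15.4 ± 0.651 and 9.15 ± 0.232 CPM for ARID1A, and 12.4 ± 0.804 and 8.38 ± 0.802 for ARID1B (SD, n = 3 each). Exchange factors that activate small GTPases such as RAC had 160 of 973 (16.4%) closed and 16 opened, led by ARHGEF3. In intron 46 of DOCK1, a RAC exchange factor gene (chr10:127423855-127425462), levels fell from 12.8, 10.8 and 12.5 CPM to 2.30, 3.14 and 2.99 and 3.85, 3.77 and 4.13, at a log2 change of -1.85 (edgeR FDR 3.67e-28, SE 0.10).

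Unlike integrins, the cadherin and synaptic adhesion lists had shares at or below that of the members at large. Cadherin genes had 98 of 853 (11.5%) closed and synaptic adhesion genes 339 of 3104 (10.9%), with 8 and 33 opened and medians of 0.01 and 0.04. Single sites in them still fell far. In intron 6 of FAT4, an atypical cadherin gene (chr4:125428031-125430045), Control libraries held 15.5, 17.6 and 13.1 CPM, shARID1A/B.2.3 libraries 2.36, 2.58 and 2.77 and shARID1A/B.4.2 libraries 5.96, 6.49 and 5.33. The fitted log2 change was -1.98 (edgeR FDR 6.4e-31, SE 0.10). Intron 2 of NTM, an adhesion protein gene of neurons (chr11:131978606-131982479), went from 37.8 ± 1.65 CPM in Control to 9.78 ± 0.345 and 15.9 ± 0.552 in the combinations, and to 14.2 ± 0.764 with shARID1A.2 but 28.9 ± 0.556 with shARID1A.4 (SD, n = 3 each). PCDH9, a protocadherin gene, had 13 of 30 closed.

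Receptor and channel genes of excitable cells were near the background. Glutamate and GABA receptor genes had 140 of 1458 (9.60%) closed and 21 opened, with GRM7 at 12 of 19 and GRID1 at 23 of 146. Channel genes had 136 of 1053 (12.9%) closed and 14 opened, led by CACNA2D1, an auxiliary calcium channel subunit (17 of 55). A site in intron 8 of GRM8 (chr7:126604813-126606218) separated the hairpins, at 11.8, 13 and 12.1 CPM in Control, 6.26 ± 0.154 with shARID1B.2 and 2.26 ± 0.379 with shARID1B.3, 1.74, 2.02 and 1.63 with shARID1A/B.2.3 and 4.03, 4.51 and 3.57 with shARID1A/B.4.2 (SD, n = 3). In intron 2 of KCNIP1, which codes for a partner of potassium channels (chr5:170691591-170692513), all combination libraries (2.55 to 3.05 and 1.58 to 2.42 CPM) lay below Control (9.26 to 10.4). Receptor tyrosine kinase genes had 81 of 616 (13.1%) closed and 9 opened. ALK, the receptor most often mutated in neuroblastoma, had 26 of 100, and the share without it was 10.7%. Its intron 11 (chr2:29273054-29274719) held 17.2, 15.1 and 17.5 CPM in Control, 3.55, 3.28 and 4.13 with shARID1A/B.2.3, 6.41, 5.38 and 5.94 with shARID1A/B.4.2 and 3.99, 3.94 and 4.33 with shARID1B.3 alone, a combined log2 change of -1.85 (edgeR FDR 5.44e-30, SE 0.10).

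Transcription factors that mark the adrenergic and mesenchymal states of neuroblastoma cells had 142 of 743 (19.1%) members closed and 13 opened, with a median of -0.11. At least 1 member closed in 32 of the 45 genes with tested members, but unevenly. TCF12, which codes for an E-protein partner of bHLH factors, had 12 of 33 closed, MEIS2 10 of 24 and ZFHX3 9 of 18. TWIST1 had 5 of 14 and GATA3 3 of 6. Lower counts were found in RUNX2 (3 of 40), YAP1 (2 of 39), ZEB2 (2 of 28), PRRX1 (1 of 18) and ZEB1 (0 of 9). The member with the smallest p was in intron 3 of BACH2 (chr6:90000722-90001973), with 12.8, 10.9 and 11.1 CPM in Control and 3.51, 3.69 and 4.31 and 4.12, 4.46 and 4.41 in the combinations, at a log2 change of -1.51 (edgeR FDR 1.34e-23, SE 0.10). Its log2 change was -0.98 with ARID1A and -0.31 with ARID1B silencing, the latter not past the threshold (edgeR FDR 0.0204). Genes of the BAF complexes themselves had 32 of 214 (15%) closed and 3 opened, among them DPF3 (7 of 12), BCL11A (7 of 23) and ARID1B (7 of 64). In intron 7 of SMARCB1, a core subunit (chr22:23826287-23827864), Control libraries spread from 12.7 to 19.6 CPM, shARID1A/B.2.3 libraries held 6.40, 5.34 and 6.55 and shARID1A/B.4.2 libraries 9.72, 10.8 and 10.1, at a log2 change of -1.12 (edgeR FDR 1.74e-16, SE 0.10).

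In all, 6242 members in 2911 host genes met the full rule for a fall, with a mean of at least 1 CPM over all libraries, both combinations past the threshold and no overlap with Control, and 282 in 260 genes met that for a rise. These were 5.92% and 0.267% of tested members, against 5.19% and 0.908% of all tested sites. Beside those described, the 12 largest falls included the one with the most reads, in intron 7 of INSC, an adaptor of spindle orientation (chr11:15219070-15220513). Its Control libraries held 22.7, 23.7 and 21.8 CPM, shARID1A/B.2.3 libraries 3.32, 3.48 and 3.52, and shARID1A/B.4.2 libraries 3.18, 2.67 and 2.97. Each single hairpin left 4.67 to 7.21 CPM on average, and the combined log2 change was -2.83 (edgeR FDR 1.85e-42, SE 0.09). PLXNA4 closed in intron 3 (chr7:132488533-132489301) from 5.05 to 5.63 CPM in Control to 0.767 to 0.886 and 0.464 to 0.986 in the combinations. ITGA4, which codes for the alpha-4 integrin, closed in intron 22 (chr2:181528488-181529092) from 3.70, 3.53 and 3.17 CPM to 0.328, 0.534 and 0.571 and 0.538, 0.598 and 0.464 at -2.77 (edgeR FDR 3.01e-23, SE 0.19) on the log2 scale, and the step from single to combined was -0.54 (edgeR FDR 0.0437, SE 0.19), which missed the threshold. TMTC1, a mannosyltransferase gene, fell at each step at a site in intron 8 (chr12:29614908-29615408), where Control libraries held 5.53, 5.92 and 4.53 CPM, single hairpins held 1.91 to 2.56 CPM on average and the combinations 0.688 ± 0.0600 and 0.897 ± 0.297 (SD, n = 3 each), a step of -1.53 (edgeR FDR 3.58e-15, SE 0.14). The remaining falls lay in intron 11 of the glycosyltransferase gene GALNTL6 (chr4:173009100-173009899) and intron 8 of the doublecortin family gene DCDC2 (chr6:24190926-24192090). Their log2 changes were -2.82 and -2.76. In both, every combination library lay below every Control library, as the full rule required. In the detailed annotation the sites of FGGY, TMTC1, DCDC2, NRP2, ITGA8, GRM8, BACH2 and ABCC9 carry other intron numbers.

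The largest rises were smaller than the largest falls. In intron 11 of CCDC67, a gene of centriole assembly (chr11:93407860-93408342), Control libraries held 0.529, 0.411 and 0.321 CPM, shARID1A/B.2.3 libraries 0.952, 0.883 and 0.703 and shARID1A/B.4.2 libraries 2.15, 2.44 and 2.27. Over both combinations this was 1.75 (edgeR FDR 2.55e-08, SE 0.25) on the log2 scale. Each shARID1A/B.4.2 library exceeded each shARID1A/B.2.3 library. ABCC9, which codes for the sulphonylurea receptor of potassium channels, opened in intron 34 (chr12:21813262-21814007) in the same manner, from 1.01, 1.27 and 0.802 CPM in Control to 5.24, 5.52 and 5.57 with shARID1A/B.4.2 and 3.65, 3.50 and 3.40 with shARID1B.2, but to only 1.87, 1.91 and 1.41 with shARID1A/B.2.3 and 1.42 ± 0.326 with shARID1B.3 (SD, n = 3). The shARID1A/B.4.2 fit gave a log2 change of 2.40, and that of shARID1A/B.2.3 gave 0.78. KCNQ5, a potassium channel gene, opened in intron 2 (chr6:73003519-73005650), at 2.36, 2.84 and 2.16 CPM in Control, 5.78, 6.16 and 7.65 and 7.53, 8.15 and 6.86 in the combinations and 3.67 to 4.02 on average with single hairpins. Its log2 change was 1.39 for the former and 1.61 for the latter combination, and edgeR's FDR for both together was 3.96e-17. C6orf7 intron 2 rose from 1.04 ± 0.259 CPM to 3.21 ± 0.396 and 3.04 ± 0.427, and CCDC171 intron 24 (chr9:15881557-15882982) from 2.48 ± 0.111 to 6.29 ± 1.04 and 6.77 ± 1.17 (SD, n = 3 each). The MICU3 site in intron 3, in a gene for a regulator of mitochondrial calcium uptake, held 0.529, 0.452 and 0.321 CPM in Control, 0.919, 0.790 and 1.06 with shARID1A/B.2.3 and 1.66, 1.47 and 1.58 with shARID1A/B.4.2. It rose by 1.46 (edgeR FDR 5.32e-06, SE 0.26), by 1.06 with the former combination and 1.86 with the latter, and the step from single to combined silencing, 0.22 (edgeR FDR 0.377), did not pass the threshold.

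**Figure D5:**
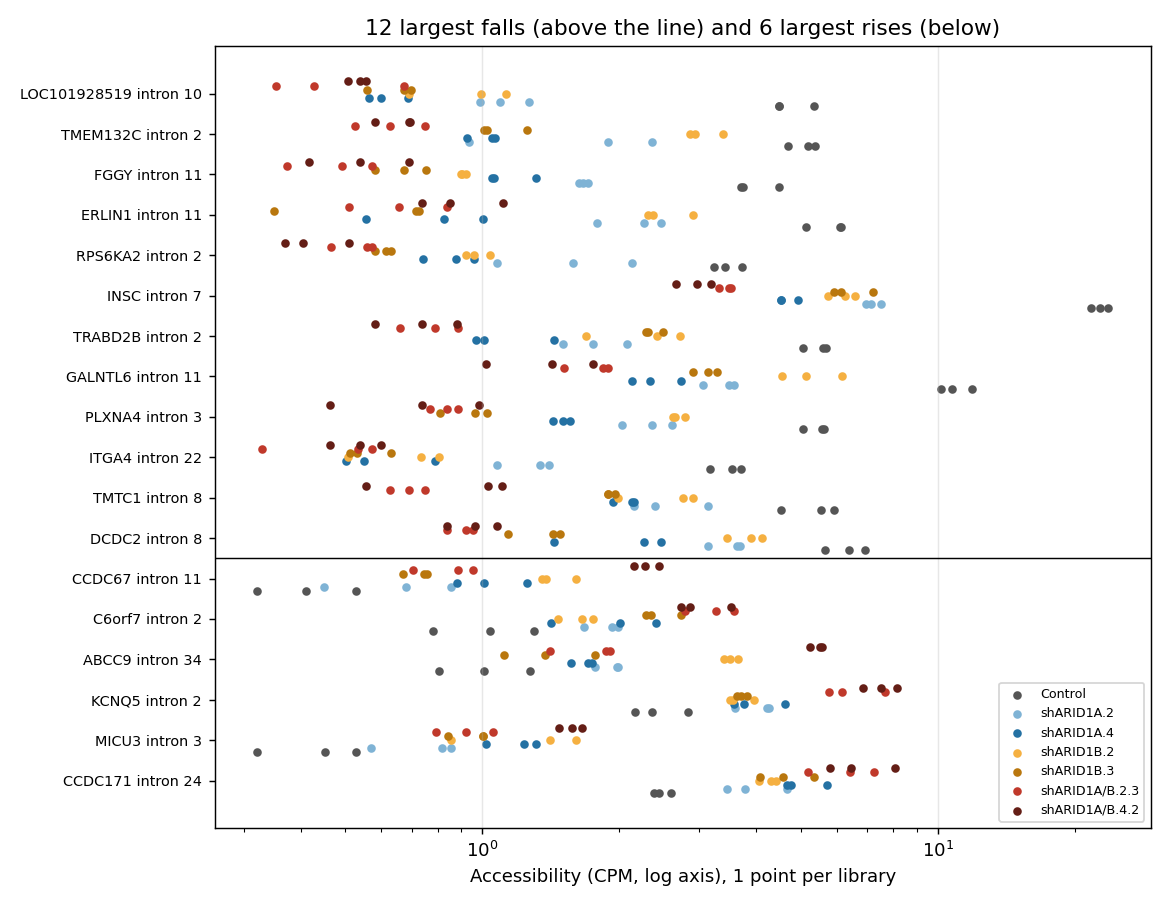
Accessibility in CPM (horizontal log axis) of the 18 named members in each of 21 libraries, coloured by group, with the 12 largest falls above the line and the 6 largest rises below it. Control libraries lie to the right of both combinations in every fall and to the left in every rise, which the choice of sites required. The libraries of shARID1A/B.4.2 lie apart from those of shARID1A/B.2.3 at CCDC67, ABCC9 and MICU3.

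The sequence of closed members held some motifs more often. Short motifs were counted on both strands of 300-base windows around the site centres. CATCTG stood in 32.9% of closed, 20.6% of opened and 22.6% of uncalled members, against 23% of all tested sites. AGATAA stood in 25.2% of closed, 15.9% of opened and 17.4% of uncalled members, against 17% of all tested sites. For TAATTA these shares were 14.4%, 5.97%, 8.03% and 7.87%. With TTGGCA they were 21.7%, 13.5%, 16.8% and 17.1%, and with TGANTCA, the AP-1 site, 14%, 9.18%, 10.7% and 10.9%. CCACTAG went the other way, with 2.11% of closed, 6.29% of opened and 3.69% of uncalled members, against 3.60% of all tested sites. The other 7 motifs differed by no more than that of AP-1 did. GGAATG (TEAD) stood in 17.3% of closed, 16.8% of uncalled members and 16.8% of all tested sites, TGTGGTT (RUNX) in 5.67%, 5.57% and 5.40%, and TGACAG (MEIS) in 23.4%, 21.9% and 21.3%. CANNTG, of which CATCTG is a form, stood in 85%, 82.6% and 81.9%. ACAATG (SOX) was at 16.3%, 14.9% and 14.8%, CCGGAAG (ETS) at 1.06%, 1.01% and 1.55%, and TGACGTC (CRE) at 0.472%, 0.573% and 0.685%.

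The share closed rose with the number of motifs. The 4 counted were those with the largest gap, in percentage points, between closed and uncalled members of these same data. The rise is therefore not independent of those shares. Among members whose window held none of the class II E-box, GATA, homeodomain and NFI motifs, 8.39% of 50382 closed. With 1 of them 13.2% closed, with 2 18.9%, with 3 26.3% of 1864, and with all 4 36.4% of 99. The share opened was 1.68% with none, 1.41% with 1, 0.957% with 2, 1.07% with 3 and 0 of 99 with 4. These words hold many A and T bases, and the median GC of the window fell from 47.7% with none to 39.3% with 4, while the median CPM rose from 0.958 to 1.48. Within windows of 40% to 45% GC, CATCTG stood in 34.2% of 2896 closed and 23.4% of uncalled members, AGATAA in 28.2% and 22.9%, and TAATTA in 15.4% and 9.85%. In the highest quintile by level the shares for CATCTG were 29.3% and 22.9%, a narrower gap. Over the whole site, closed members had a median GC of 43.8%, opened members 47.6% and uncalled members 46.5%. Both called groups were longer, with medians of 1169 and 1103 bases against 701, and carried more reads, at 2.62 and 2.77 against 0.885 CPM. These are shares over sites of the same libraries and were given no test.

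Opening varied more with distance from the nearest TSS than closing did. Members 3 to 10 kb away closed in 10.9% and opened in 2.57% of cases, those 10 to 50 kb away in 11.3% and 1.73%, those 50 to 100 kb away in 12.4% and 1.23%, and those beyond in 12.5% and 0.966%. Where the nearest gene was not the host gene, 12.7% closed, against 11.1% where it was. Chromosomes differed in how many members they held per megabase, from 7.86 on the X chromosome and 9.37 on chromosome 18 to 53.2 on chromosome 7 and 54 on chromosome 11. The share closed was 22.4% and 27.4% on the sparse pair and 10.7% and 8.88% on the dense pair, at median levels of 1.02, 1.04, 1.03 and 1.24 CPM. Density did not order the shares throughout. On chromosome 19, with 13.4 members per megabase, 8.43% of 759 tested members closed and 9.88% opened, and on chromosome 21, with 15.2, 10.2% closed. Chromosomes 22 and 13, with 14.8 and 15.5 members per megabase, had 18.9% and 22.2% closed. Chromosome 2, which carries MYCN, held 24 of the 100 members with the most reads.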

How the data were processed

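ATAC-Seq reads of 21 libraries (7 groups of 3) had been counted by the authors in 367900 consensus sites on GRCh38, with an aligner and peak caller not given in the sources used here. Raw counts per site were deposited. Other deposited columns hold the authors' DESeq2 fold changes, p-values and normalized counts and were not used. Sites were placed by the deposited HOMER annotation, whose starts are 1 above those of the count table.

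Samples were grouped by the treatment label. Counts were tested with edgeR 4.0.16 in R 4.3.3 (quasi-likelihood test, TMM scaling, filterByExpr with a minimum count of 10, 1 model of 7 groups, Benjamini-Hochberg FDR under 0.01 over 357029 sites). Library totals ran from 16140029 to 44472230, so sites of few reads have the least precision. The fit was tested on simulated data. Log2 ratios of summed reads were compared by two-sided exact permutation tests over libraries (SciPy 1.17.1), adjusted over 16 tests. Per-site CPM used TMM-scaled totals, and fold changes are edgeR estimates. Replicates of each group differed beyond counting noise and were all kept. P-values of edgeR measure the spread between these triplicates, and the permutation tests treat libraries of the same hairpin group as separate units.

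Named sites were the 12 largest falls and 6 largest rises called in the averaged contrast and with each combination, with a mean of at least 1 CPM, no overlap between the combinations and Control, and 1 site per host gene. Named genes were the 10 with the most closed members, the 5 with the highest share closed among those with at least 10 tested, the 3 with the most opened, and, for each gene list, the gene with the most closed members and the member with the smallest p. Further genes of a list were named after their values were seen. The members, lists and motifs were chosen with earlier results of these data known. Repeat classes could not be described from the detailed annotation. Alternatives covered scaling, filter, threshold, DESeq2 1.42.0, samples in the fit, site sets, a replicate block and each library left out. Sequences were read from a GRCh38 genome, and those of the other named sites are not reported here.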

Additional observations from a re-analysis of the deposited data

How the results depend on the processing

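Combined silencing is given first below, then shARID1A/B.2.3, shARID1A/B.4.2, ARID1A, ARID1B and combined against single silencing. Requiring a log2 change of at least 1 left 5269, 6876, 4205, 1390, 1014 and 546 members lower and 246, 536, 557, 103, 203 and 31 higher. At an FDR under 0.05, 3836, 4639, 3974, 2112, 2598 and 1784 members were higher. Scaling on promoter sites gave 263, 620, 383, 171, 465 and 154 higher, and 19048, 17304, 11236 and 6430 lower in the combined, shARID1A/B.4.2, ARID1A and ARID1B contrasts. DESeq2 gave 849, 791, 1262, 509, 709 and 167 higher. A fit of only the compared groups gave 884 higher for shARID1A/B.2.3, and offsets for GC content 716 higher for combined against single silencing. The causes of these shifts were not tested, beyond what each threshold or scaling does by construction.

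Leaving out 1 library in turn gave 10205 to 11804 members closed and 1125 to 2436 opened after combined silencing, and 1260 to 1654 opened for shARID1A/B.4.2, 353 to 1123 for ARID1A and 646 to 1163 for ARID1B. The read ratio to first-intron sites, which passed no test, changed sign as a mean of log2(CPM + 1) (0.00892 combined, 0.00523 ARID1A, 0.00887 combined against single), and for combined against single also with only sites under the 99th percentile of CPM (0.00568) and without each shARID1A/B.4.2 library (-0.0130 to 0.00124 over all libraries left out, with 0.000383, 8.01e-05 and 0.00124 for those 3). The ratio to intergenic sites from single to combined silencing was -0.0159 as a mean of log2(CPM + 1) and no longer passed. Of the other values, 191 from other settings kept their direction and their side of the threshold or stayed within 1.5 times. No named site changed direction or call, while 15 counts or values at named genes moved with a library left out and 17 with another setting.

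Replicate numbers linked the libraries weakly and unevenly. Over 63 same-numbered pairs the correlation of deviations ran from -0.16 to 0.305, and 4 were over 0.1. Over pairs with different numbers it ran from -0.1877 to 0.1445. Of 21 libraries, 12 correlated best with their own number. With the replicate block 12785 members closed and 1742 opened after combined silencing. The alternative without members that the detailed annotation puts in intron 1 or another gene was chosen after seeing the data. Depth limits weak sites most, and 3092 members were not tested. One cell line was profiled, knockdown was not measured here, and reads cannot separate fewer open cells from less open sites.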
